A study of Mus musculus with 2 samples.

Results

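The E protein genes Tcf3, Tcf12 and Tcf4 and the Id genes Id2 and Id3 were examined for TCF1 occupancy in γδ T cells of the mouse thymus. Each gene was given 1 fixed window of the mm9 genome, and every listed TCF1 interval that overlapped the window by at least 1 bp was counted as a member. The 5 windows held 90 of the 104683 intervals in the list. Tcf3 had 35, Id3 had 20, Id2 had 14, Tcf4 had 11 and Tcf12 had 10. The intervals came from 1 library made by chromatin immunoprecipitation (ChIP) with an antibody against TCF1. A second library of input chromatin, made without antibody from the same kind of cells, was not used here, so no value has a measured background. Both libraries were labelled as γδ thymocytes of C57BL/6 mice with the genotype TCRbeta KO, Sox13tg+ and Sox13 ECFP KI/+. The cells thus lacked the T cell receptor β gene, carried a Sox13 transgene and held a CFP reporter in 1 Sox13 allele. They were sorted as γδ-positive, CD24-positive and low or negative for CFP, and 1000000 cells entered the ChIP. The age and number of the mice and the promoter of the transgene are not given in the labels. A list of binding intervals measures no expression, so the labelled cell type could not be checked against markers. The stated purpose was to chart the resting positions of TCF1 while the cells acquire effector programs.

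E proteins are basic helix-loop-helix transcription factors that pair with each other and bind the E-box, CANNTG. Tcf3 encodes the splice forms E12 and E47, together called E2A, Tcf12 encodes HEB, and Tcf4 encodes E2-2. Id proteins have the helix-loop-helix but no basic DNA-binding part, so they pair with E proteins and keep them off DNA. In the thymus, E proteins drive early T cell genes and antigen receptor rearrangement, and receptor signalling raises Id3, which lowers E protein activity in γδ as in αβ cells. Id2 is best known for its role in innate lymphoid and effector lymphocytes. The names invite confusion, since TCF1, the immunoprecipitated protein, is an HMG-box factor encoded by Tcf7. It is not related to the E proteins in its DNA-binding domain, and the HMG-box relatives of TCF1 that older texts call TCF3 and TCF4 are encoded by Tcf7l1 and Tcf7l2.

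The sequences just before the annotated starts of Tcf3, Id2 and Id3 show which E-boxes and core TCF motifs the promoters of the windows with the most intervals hold. They are the 250 bases upstream of the start in RefSeq (build GRCm38.p6), 5′ to 3′ on the gene's strand. Capitals mark the E-box CANNTG and the TCF cores CTTTGA and CTTTGT, searched on both strands. The Tcf3 stretch is chr10:80433636-80433885 on the minus strand, that of Id2 is chr12:25096093-25096342 on the minus strand, and that of Id3 is chr4:136143572-136143821 on the plus strand, all in GRCm38.p6.
Tcf3: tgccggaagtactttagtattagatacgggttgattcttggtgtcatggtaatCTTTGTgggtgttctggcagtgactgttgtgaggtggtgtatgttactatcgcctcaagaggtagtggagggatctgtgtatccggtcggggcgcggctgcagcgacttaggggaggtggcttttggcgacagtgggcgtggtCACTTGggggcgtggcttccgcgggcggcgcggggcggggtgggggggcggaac
Id2: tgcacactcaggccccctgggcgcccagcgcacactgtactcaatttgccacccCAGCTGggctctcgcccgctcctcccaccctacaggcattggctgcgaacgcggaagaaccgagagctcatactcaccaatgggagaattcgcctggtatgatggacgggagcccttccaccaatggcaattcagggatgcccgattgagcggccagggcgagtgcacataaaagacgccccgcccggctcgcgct
Id3: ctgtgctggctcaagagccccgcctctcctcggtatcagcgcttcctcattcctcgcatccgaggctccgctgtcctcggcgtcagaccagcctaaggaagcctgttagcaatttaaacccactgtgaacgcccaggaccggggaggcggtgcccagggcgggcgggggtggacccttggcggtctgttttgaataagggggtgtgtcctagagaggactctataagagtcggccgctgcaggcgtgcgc
The Tcf3 stretch held 1 E-box and 1 CTTTGT, which do not overlap. The Id2 stretch held 1 E-box and neither TCF core. The Id3 stretch held none of the motifs. Among all 32851 RefSeq promoter stretches of this length, 66.2% held an E-box, 13.8% held CTTTGA and 16.5% held CTTTGT. These stretches are in another build than the intervals, so whether an interval covers any of them was not analysed here, and nothing about binding is read from the motifs. Tcf12 has 3 annotated stretches in the same table, of which 2 held an E-box, 2 held CTTTGT and none held CTTTGA. Any stretch of Tcf4 was left out of this part, so its motifs are not given.

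TCF1 intervals were dense at Tcf3 and Id3, moderately dense at Id2 and sparse at Tcf12 and Tcf4. The density was 38.9 intervals per 100 kb at Tcf3 (95% Poisson interval 27.1 to 54.1), 16.7 at Id3 (10.2 to 25.7), 7.00 at Id2 (3.83 to 11.7), 2.70 at Tcf12 (1.30 to 4.97) and 2.44 at Tcf4 (1.22 to 4.37). These intervals cover counting error only and treat neighbouring binding intervals as independent, which makes them too narrow. In the order Tcf3, Id3, Id2, Tcf12 and Tcf4, every ratio between neighbours had an interval above 1 except that of Tcf12 to Tcf4. The ratio intervals are too narrow for the same reason, so they cannot settle whether the order holds. Tcf3 exceeded Id3 by 2.33-fold (1.31 to 4.27), Id3 exceeded Id2 by 2.38-fold (1.14 to 5.10), and Id2 exceeded Tcf12 by 2.59-fold (1.07 to 6.52). The ratio of Tcf12 to Tcf4 was 1.11 (0.421 to 2.87). These are 4 of the 10 pairs of loci, and no adjustment was made for their number. The E protein genes therefore did not share a density, since Tcf3 exceeded Tcf12 by 14.4-fold (6.97 to 32.6) and Tcf4 by 15.9-fold (7.90 to 34.7). With 1 library there was no replicate, no test was made, and the read depth is unknown.

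**Figure D1:**
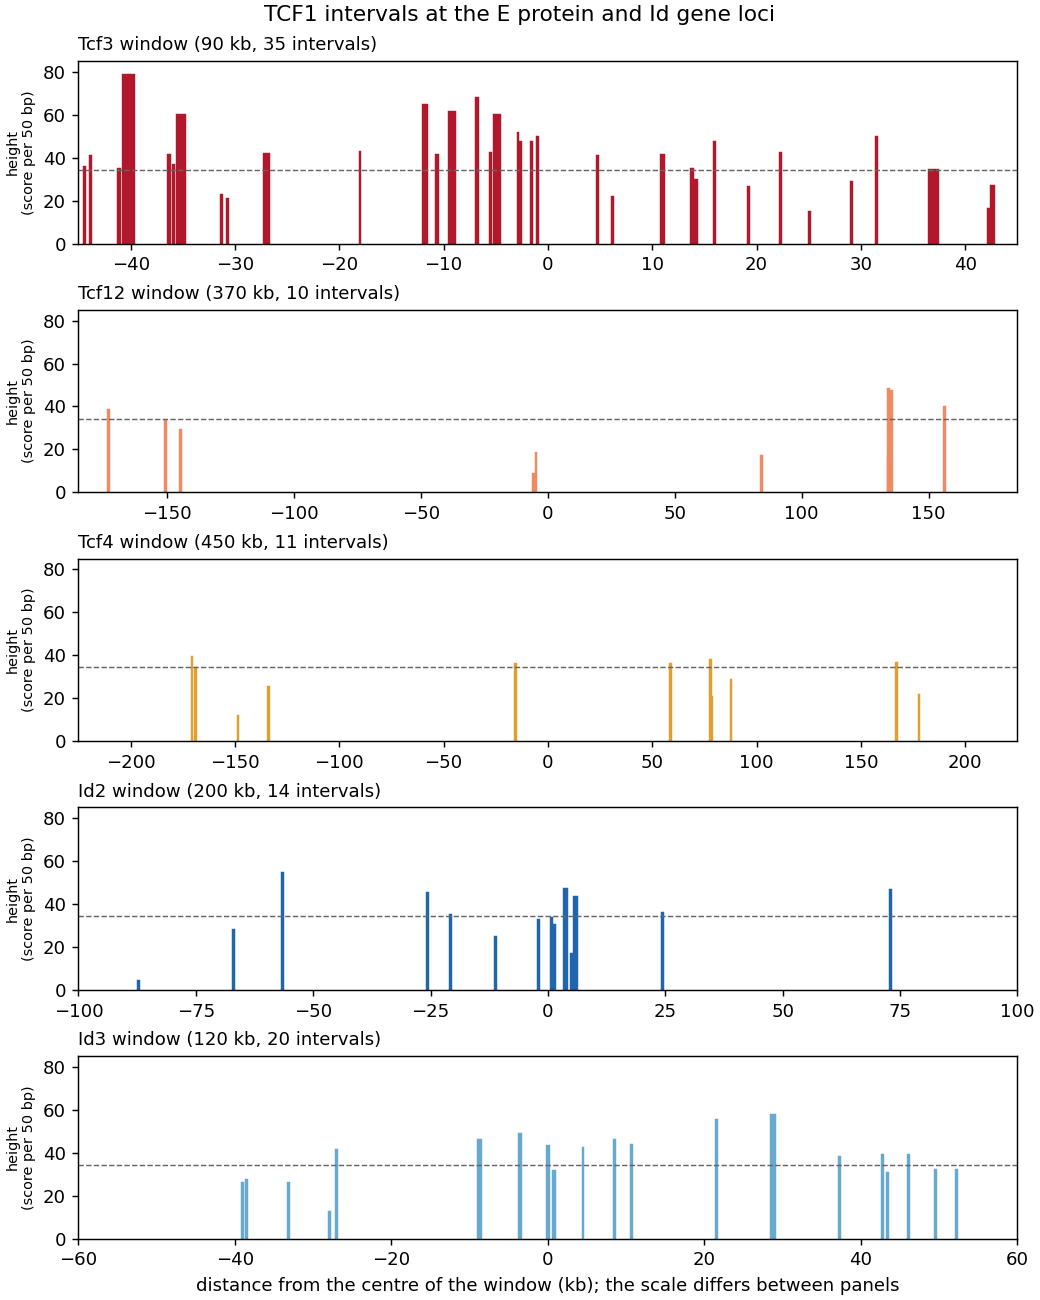
TCF1 intervals in the 5 windows. The horizontal axis is the distance in kb from the centre of the window, with a scale that differs between panels, the vertical axis is the height (score per 50 bp), and each bar is 1 interval, with narrow intervals drawn wider than to scale, so that close neighbours merge. The dashed line is the autosomal median of 34.4. The 35 intervals at Tcf3 run through the whole window, whereas the 10 at Tcf12 lie in few places with up to 138.9 kb between them.

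Set against windows of the same size on the same chromosome, Tcf3 and Id3 lay near the top of the range, Id2 in its upper part and Tcf12 and Tcf4 in its middle. At Tcf3, 98.9% of 1408 windows of 90 kb held fewer intervals than its 35. The median such window held 2 and the fullest held 57. At Id3, 94.5% of 1269 windows of 120 kb held fewer than 20, with a median of 3 and a maximum of 60. At Id2, 86.7% of 588 windows of 200 kb held fewer than 14, with a median of 5. The Tcf12 window was below the middle of its range, since 40% of 325 windows of 370 kb held fewer than 10 and the median held 12. With the upper 10% of the list by score it turned to the other side, with 64.3% of windows holding fewer than its 2 intervals, while the upper 50% gave 27.7%. The Tcf4 window was at the median of 11, with 46.9% of 192 windows of 450 kb holding fewer. It had no interval in the upper 10% by score, so no window could hold fewer, and the 0% this gives is not a rank. The upper 50% gave 38.0%. The share of each window covered by intervals gave the same order as the density. It was 11.7% at Tcf3, against a median of 0.611% over its comparison windows, 4.17% at Id3 (0.792%), 1.87% at Id2 (0.650%), 0.851% at Tcf12 (0.824%) and 0.522% at Tcf4 (0.656%). Ranked by this share, Tcf12 stood above Tcf4, with 52.3% and 37.0% of comparison windows less covered. By the number of intervals their ranks were the other way round.

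**Figure D2:**
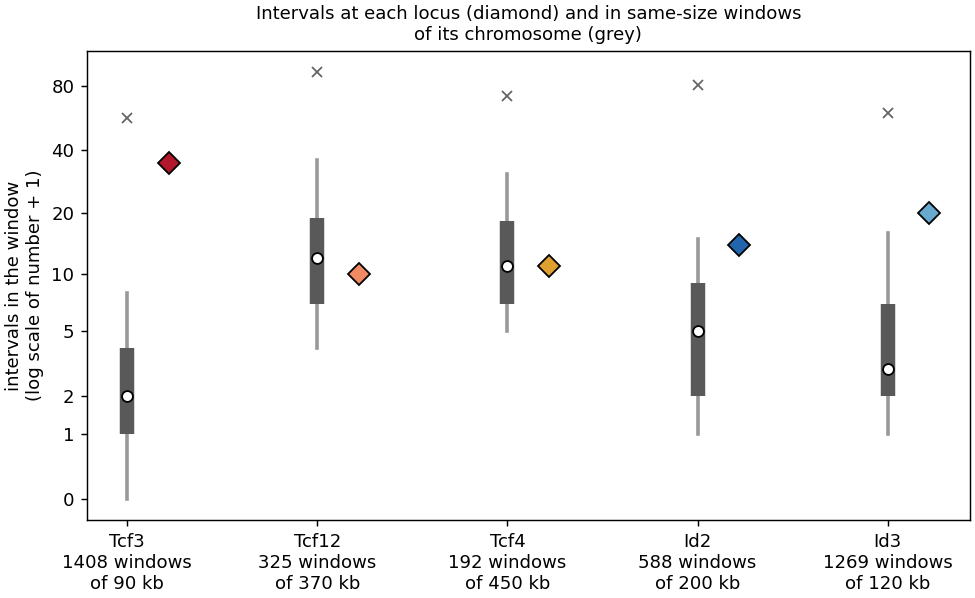
Number of intervals at each locus (diamonds) and in non-overlapping windows of the same size on its chromosome (grey), on a log scale of the number plus 1. White points are medians, thick bars run from the 25th to the 75th percentile, thin bars from the 10th to the 90th, and crosses mark the fullest window. Tcf3, with 35, and Id3, with 20, lie above the thin bars, and Tcf12 and Tcf4 lie inside the thick bars.

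The surroundings of Tcf3 and Id3 were dense as well. The megabase that holds the Tcf3 window, chr10:79000001-80000000, listed 418 intervals, of which the locus gave 8.37%. Outside the Tcf3 window it had 42.1 per 100 kb, which is inside the Poisson interval of the locus. The windows of equal size just before and after Tcf3 held 39 and 32 intervals, and 14 of 109 windows within 5 Mb held at least 35. The density at Tcf3 was thus not above that next to it. For Id3 the rest of its megabase had 11.8 per 100 kb, also inside the interval of the locus, its direct neighbours held 20 and 17 intervals, and 71.6% of 81 windows within 5 Mb held fewer than 20. For Id2 the rest of the megabase had 6.75 per 100 kb, also inside the interval of the locus, but the neighbours were unequal. The window before it held 13 intervals and the window after it held 3, and 4 of 48 windows within 5 Mb held at least 14. Tcf12 held 10 intervals between neighbours with 14 and 17. Tcf4 held 11, more than its neighbours with 7 and 9, and accounted for 52.4% of the 21 intervals in its megabase. Its window of 450 kb takes up much of that megabase, so a large share follows from length. The rest of the megabase had 1.82 per 100 kb, inside the Poisson interval of Tcf4 (1.22 to 4.37). The density at Tcf4 was thus not shown to be above that of the rest.

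**Figure D3:**
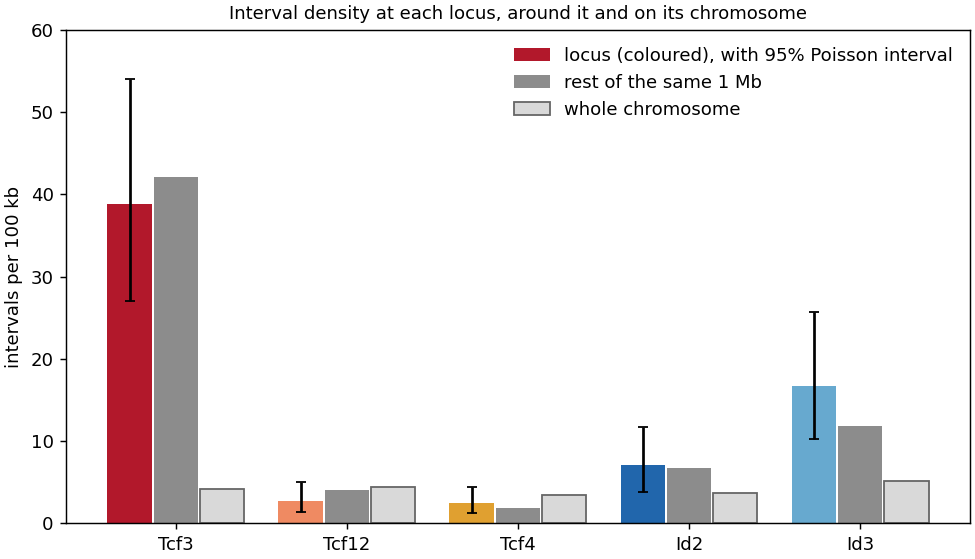
Interval density per 100 kb at each locus (coloured bars, with 95% Poisson intervals for counting error), in the rest of the same 1 Mb (dark grey) and over the whole chromosome, the locus included (light grey). At Tcf3 the rest of the megabase, with 42.1, stands as high as the locus, with 38.9, and both stand far above the 4.07 of chromosome 10.

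Intervals at these loci were of ordinary height. Height is the score per 50 bp of interval, used because the deposited score grows with width. The sources used here do not say what the score measures. The median over the 90 intervals was 36.8 (95% order-statistic interval 34.5 to 41.2), against 34.4 over the autosomes, and 55 of 90 (61.1%) were above the autosomal median, against 49.1% of the whole list. Without Tcf3 it was 29 of 55 (52.7%). The upper 10% of the list by height began at 57.0. It took in 7 of the 90 intervals (7.78%), against 10% of the list by construction, and 6 of the 7 were at Tcf3 and 1 at Id3. No member was among the extreme heights above 132.8, a limit passed by 105 intervals of the list. Members were wider more often than the list, since 15 of 90 (16.7%) were 500 bp or more, against 9.68%. Wide intervals were also the higher ones, with a median height of 47.4 over these 15 and 35.2 over the other 75. In the whole list the same medians were 50.8 and 32.6. By score, which combines both, 13 of 90 (14.4%) were in the upper 10%, against 10% of the list, and without Tcf3 it was 6 of 55 (10.9%).

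**Figure D4:**
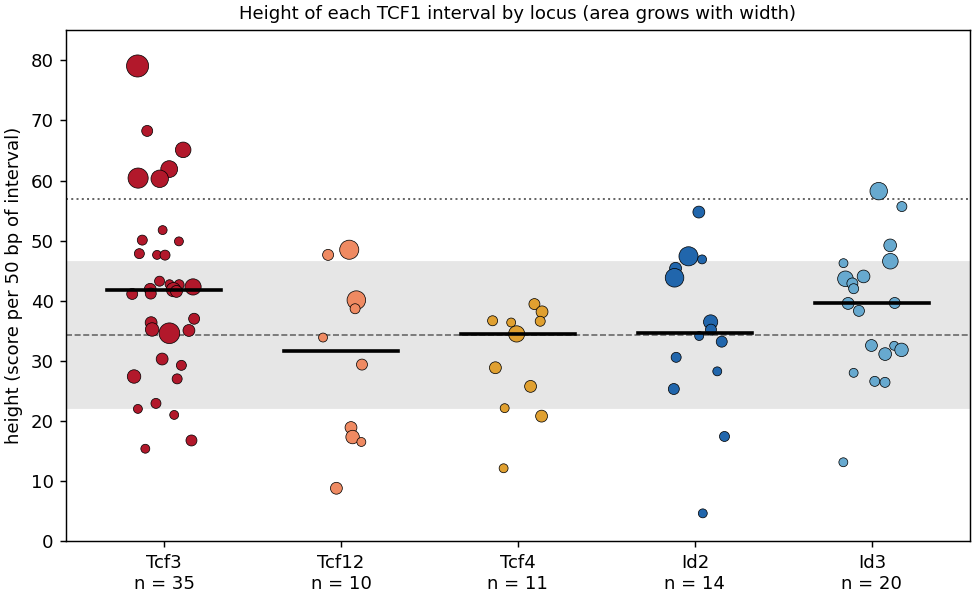
Height of each of the 90 intervals by locus (points, with an area that grows with width), with the median of each locus as a black line. The grey band runs between the autosomal quartiles of 22.2 and 46.4, the dashed line is the autosomal median of 34.4 and the dotted line at 57.0 is the start of the upper 10% of the list. Points above the dotted line occur at Tcf3 and, once, at Id3.

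Tcf3, the E2A gene, carried the highest intervals. Heights in its window, chr10:79840000-79930000, ran from 15.4 to 79.1 with a median of 41.8 (35.2 to 47.6). The autosomal median lies below that range, and 26 of 35 intervals were above it. When only the upper 50% of the list by score was kept, the Tcf3 median was 0.920 times the autosomal one, against 1.22 times in the full list, so the direction of this difference depended on which intervals were kept. The same choice moved the ratio across 1 at the other loci too, from 1.15 to 0.942 at Id3, from 1.01 to 0.980 at Id2, from 1.00 to 0.798 at Tcf4 and from 0.920 to 1.05 at Tcf12. At these other loci the new ratio stayed inside the order-statistic interval of the main one, and at Tcf3 it did not. Windows on chromosome 10 with a similar number of intervals, within 1.5 times of 35, had a typical median height of 44.6, and 3 of these 19 windows were lower than Tcf3. The greatest height was that of chr10:79844201-79845300, which at 1100 bp was also the widest interval of all 90. Its score was 1739, its height of 79.1 was above 99.1% of the list, and it alone held 17.3% of the summed score of the window. The next were chr10:79878051-79878250 with a height of 68.2, chr10:79872951-79873450 with 65.1, chr10:79875451-79876050 with 61.9 and chr10:79849301-79850200 with 60.4. The sixth in the upper 10% was chr10:79879751-79880400, with a height of 60.3. The lowest was chr10:79909951-79910050 with a height of 15.4. The high intervals were on 1 side of the window. All 6 in the upper 10% lay between 79844201 and 79880400, and the 18 intervals from 79882001 onwards reached at most 51.8. The 17 intervals up to 79880400 held 71.7% of the summed score, a division chosen after the heights were seen.

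Intervals in the Tcf3 window were closely spaced. Spacing in the rest of its megabase, which was as dense, was not measured, so this is not shown to be particular to Tcf3. In the window, 19 of 35 intervals had another within 500 bp, against 21.4% of the list. The median distance to the nearest neighbour was 450 bp, against 3400 bp. Joined at distances of up to 10 kb, all 35 formed 1 stretch, of which 87.35 kb lay in the window. It did not end there, since the next listed interval followed 6.80 kb after the last of the 35, beyond the border. Inside, the longest part of the window without an interval was 8.60 kb. Joining those within 1 kb lowered the density from 38.9 to 24.4 per 100 kb, while 99.2% of the comparison windows, joined alike, still held fewer. The protein-coding genes next to Tcf3 in GRCm38 are Mex3d, Mbd3 and Uqcr11 on one side and Onecut3, Atp8b3 and Rexo1 on the other. Which intervals fall inside Tcf3 and which inside such neighbours was not analysed here, since no mm9 annotation was used.

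Tcf12, which encodes HEB, the usual partner of E2A in thymocytes, had 10 intervals in chr9:71640000-72010000, in few places. Those of greatest score lay together near the upper end of the window. The interval chr9:71958801-71959600 scored 775.75 with a height of 48.5, and was both the highest and the widest, with 800 bp. It was flanked at 150 bp on each side by chr9:71959751-71959950, with a height of 47.6, and chr9:71958551-71958650, with 16.5. Next came chr9:71980551-71981300, 750 bp wide with a height of 40.1. These 4 intervals spanned 22.75 kb and held 74.0% of the summed score, a division chosen after the positions were seen. The other 6 had a median height of 24.1. At the lower end were chr9:71651301-71651450 with a height of 38.7, chr9:71673801-71673900 with 33.9 and chr9:71679651-71679850 with 29.4. A stretch of 138.9 kb without an interval followed. In the middle, chr9:71818751-71819000 had the lowest height, 8.80, chr9:71819751-71820000 had 18.9 and chr9:71908651-71909000 had 17.3. The median over all 10 was 31.6 (16.5 to 47.6), a range that includes the autosomal median. None of the 10 was in the upper 10% by height, while 2 were by score, both through their width. The highest interval of the window was lower than that of 234 of the 325 comparison windows.

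Tcf4, the E2-2 gene and a main regulator of plasmacytoid dendritic cells, had the lowest maximum in height of the 5 loci. Its 11 intervals in chr18:69450000-69900000 ran from 12.1 to 39.4 in height, with a median of 34.5 (20.8 to 38.2). The widest, chr18:69505601-69506150 with 550 bp, had the greatest score of the window, 379.25, and a height of 34.5. The highest, chr18:69503751-69503950, lay 1650 bp from it, with a height of 39.4, and together they held 36.6% of the summed score. The other intervals were scattered along the window. Near that pair were chr18:69525751-69525850, the lowest with 12.1, and chr18:69540201-69540450 with 25.8. After 118.35 kb without an interval, chr18:69658801-69658900 had 36.4 and chr18:69732901-69733050 had 36.6. Then came chr18:69752151-69752400 with 38.2, chr18:69752801-69753050 with 20.8 and chr18:69762051-69762300 with 28.9. The last were chr18:69841251-69841400 with 36.7 and chr18:69852201-69852300 with 22.1. None of the 11 was in the upper 10% of the list by height or by score, and 158 of the 192 comparison windows held a higher interval than its highest. The list had no interval for 145.4 kb before the first and 111.25 kb after the last of the 11. A median height of 34.5 was nevertheless above that of 58 of 70 windows on chromosome 18 with a similar number of intervals, whose typical median was 27.6.

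Id2, an inhibitor of E proteins, had 14 intervals in chr12:25680000-25880000, gathered near the centre of the window. From 25754001 to 25786200, a span of 32.2 kb, 9 of the 14 followed each other at distances of at most 10 kb and held 75.5% of the summed score. The other 5 were single. The widest was chr12:25783251-25784050, 800 bp scoring 758.25, with a height of 47.4, and close to it chr12:25785451-25786200 was 750 bp wide with a height of 43.8. Together they held 47.9% of the summed score, and they were the 2 intervals of the window in the upper 10% by score. The highest, chr12:25723151-25723400, was a single interval of 250 bp with a height of 54.8, above 87.7% of the list. The other high ones were chr12:25852751-25852850 with 46.9 and chr12:25754001-25754250 with 45.4. The lowest of all 90 was chr12:25692551-25692650, scoring 9.25, with a height of 4.62, above 2.16% of the list. The median height was 34.7 (25.3 to 46.9), and 7 of 14 were above the autosomal median. None had another interval within 500 bp. The protein-coding neighbours of Id2 in GRCm38 are Kidins220 and Rnf144a.

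Id3, the inhibitor induced by receptor signalling, had 20 intervals in chr4:135640000-135760000, spread over 3 stretches. The first, from 135660801 to 135673000, held 5 intervals with heights from 13.1 to 42.0 and a median of 26.6. The second, from 135690901 to 135710750, held 7 with a median of 44.0 and 46.8% of the summed score. The third, from 135721401 to 135752300, held 8 with a median of 38.9 and 44.4%. This one is cut by the border of the window, with the next listed interval 9.65 kb after its last. The highest and widest was chr4:135728351-135729000 in the third stretch, 650 bp scoring 757.0, with a height of 58.2, above 91.2% of the list. It was followed by chr4:135721401-135721550 with 55.7, and then by 3 in the second stretch, chr4:135696201-135696500 with 49.2, chr4:135690901-135691400 with 46.6 and chr4:135708351-135708450 with 46.2. The lowest was chr4:135671951-135672050 with 13.1. The median over the 20 was 39.6 (31.8 to 44.0), and 12 were above the autosomal median of 34.4, which lies inside that range. Of the 142 windows on chromosome 4 with a similar number of intervals, 88 had a lower median, and their typical median was 38.3. The genes next to Id3 in GRCm38 are Rpl11 and E2f2, so this window too can hold intervals of other genes.

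Taking the Id genes and the E protein genes as classes did not separate them by height. The median was 37.4 over the 34 Id intervals (31.8 to 43.8) and 36.8 over the 56 E protein intervals (34.5 to 41.5). Without Tcf3 the latter was 33.9 over 21 intervals (20.8 to 38.2). Density gave 10.6 per 100 kb for Id (7.36 to 14.8) and 6.15 for E proteins (4.65 to 7.99), or 2.56 without Tcf3 (1.59 to 3.91). Windows also differed in length from 90 to 450 kb, with the longest for Tcf12 and Tcf4, so densities of a window and of a gene are not the same thing.

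No interval crossed a border of a window. Where the borders were set still decided the members, since listed intervals went on outside. The nearest listed interval outside lay 14.15 kb below and 4.55 kb above the Tcf3 window, 20.35 and 12.45 kb at Tcf12, 91.65 and 63.55 kb at Tcf4, 1.55 and 22.9 kb at Id2, and 1.90 and 1.95 kb at Id3. Their heights ran from 22.9 at Tcf4 to 64.4 at Tcf12. The nearest ones inside lay 0.401 and 2.25 kb from the borders at Tcf3, with heights of 36.4 and 27.4. They lay 11.3 and 28.7 kb away at Tcf12 (38.7 and 40.1) and 53.75 and 47.7 kb away at Tcf4 (39.4 and 22.1). At Id2 the distances were 12.55 and 27.15 kb (4.62 and 46.9), and at Id3 20.8 and 7.70 kb (26.4 and 32.5).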

How the data were processed

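TCF1 binding was measured by ChIP followed by sequencing in 1 library, and an input library was not used here. Formaldehyde (1%) fixed the chromatin, and the DNA was amplified for 17 cycles and selected at 300 to 500 bp, per the labels' protocols. The deposited file gives each interval 1 score, without a header, and all scores are multiples of 0.25 (relative tolerance 1e-06). Positions are in mm9, per the submitters' processing notes. No aligner, caller, threshold or use of the input is given in the sources used here. Read depth is unknown.

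Starts lay on a 50 bp grid and ends 1 bp short of it, so ends were read as inclusive. Positions count from 1. The windows were fixed by rule. The members and lists were chosen with earlier results of these data known. Each window was ranked among non-overlapping windows of its size on its chromosome, from the first listed interval on, without those touching the locus. Empty windows were kept, and assembly gaps were not removed. Ranks are descriptions without a p-value. Median heights of windows needed at least 3 intervals. Named intervals were all of them at loci with at most 12, and otherwise the 5 highest, the widest and the lowest. The sixth highest at Tcf3 and borders of groups were added after the values were seen. Genes of the pathway beyond the 5 members need an mm9 annotation and were not analysed here. Alternatives concerned the score threshold, overlap, joining, window borders and comparison windows. On simulated data with uniform positions and intervals of 1 width, window counts matched a direct count in the windows checked. This tested the counting only. Scripts ran in Python 3.11.15 (scipy 1.17.1, pandas 2.3.3, numpy 2.4.6), with matplotlib 3.10.9 for figures.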

Additional observations from a re-analysis of the deposited data

How the results depend on the processing

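Of 75 alternative values, 49 stayed inside the counting interval of the main value and 26 moved. Counting by midpoint had to give the same members, because no interval crossed a border, so its unchanged values among the 49 show nothing about stability. Widening each window by 25% of its length on each side moved no density outside its Poisson interval. Shifting the grid moved no rank, nor did leaving out empty windows at Tcf3, Id2 and Id3. Tcf12 and Tcf4 had no empty comparison window, so that choice could not change their ranks.

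Restricting the list by score lowers densities by construction. With the upper 50% by score, the density per 100 kb became 24.4 at Tcf3, 0.811 at Tcf12, 0.889 at Tcf4 and 3 at Id2. With the upper 10% it became 7.78 at Tcf3, 0.541 at Tcf12, 0 at Tcf4, 1 at Id2 and 1.67 at Id3. Joining within 1 kb gave 24.4 at Tcf3.

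The percent of same-size windows with fewer intervals became 27.7 at Tcf12, 38.0 at Tcf4 and 81.5 at Id2 in the upper 50%. In the upper 10% it became 64.3 at Tcf12, 0 at Tcf4, 83.3 at Id2 and 85.7 at Id3. The 0 at Tcf4 was fixed in advance, since no window can hold fewer intervals than a locus that has none. After joining it was 29.2 at Tcf12. Against all autosomes it was 99.8 at Tcf3, 48.7 at Tcf12, 82.9 at Id2 and 96.1 at Id3. Within 5 Mb it was 87.2 at Tcf3, 91.7 at Id2 and 71.6 at Id3. The ratio of the Tcf3 median height to the autosomal one was 1.22 in the full list and 0.920 in the upper 50%. In the upper 50% this ratio lay on the other side of 1 at each of the 5 loci. Only at Tcf3 was it outside the interval of the main value. The cause of these shifts was not tested.

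No paired analysis was possible because the list comes from a single library. Without the read depth, low intervals cannot be ranked by reliability, and a gap in the list is no evidence of unbound DNA.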
